A study of Homo sapiens with 18 samples.

Results

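The comparison described here set OVCAR-3 cells kept for 24 h with 1 µM i-BET151 against cells kept for 24 h with DMSO, and its members are the 3 libraries labelled with each of these treatments, 6 of the 18 libraries of the series. OVCAR-3 is an established line of high-grade serous ovarian carcinoma, so that all libraries are models of 1 tumour. The cells were grown in 12-well plates and treated in stripped medium, and RNA was taken for poly-A sequencing. The study also used the inhibitor i-BET858 at the same dose and a 4 h time point of all 3 treatments. These are used below for comparison with the late response to i-BET151, and the i-BET858 libraries at 24 h also entered its fit.

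i-BET151 binds the bromodomains of the BET proteins, BRD2 and BRD3 among them. These proteins read acetylated lysines on histone tails and bring the elongation kinase P-TEFb, made of CDK9 and a cyclin T, to promoters and enhancers. A large pool of P-TEFb is held inactive by the 7SK ribonucleoprotein, of which HEXIM1 is the inhibitory subunit, and a rise of HEXIM1 mRNA is a common marker of BET inhibition.

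Of 17157 genes tested at 24 h, 5797 (33.8%) passed at an adjusted p under 0.05, 2956 of them higher with i-BET151 (17.2% of the genes tested) and 2841 lower (16.6%). These percentages are the background for the counts of group members given below, and a count near them marks no trait of its group. A gene that passed is said to have risen or fallen, and it was called where the change was also at least 2-fold. There were 2347 called genes (13.7%), 959 higher (5.59%) and 1388 lower (8.09%), with 0.0046 as the median log2 fold change of the genes tested. The libraries held 27534213 to 39771042 counts, so that 3 counts, the limit that a count of 0 allows, made 0.0745 to 0.103 CPM (counts per 1000000 counts of a library after scaling), and this limit covers counting error only. Replicate 3 stood apart from the other libraries, with 17817 to 18987 genes with a count against 23807 to 24406 in replicates 1 and 2. With replicates 1 and 2 alone 3246 genes were called, 1188 higher and 2058 lower. The main test did not use the replicate numbers. With these numbers as a block 2599 genes were called, 1058 higher and 1541 lower. In bulk RNA, fewer cells of a kind and less RNA per cell cannot be told apart. The p-values here measure the spread between 3 samples a group of 1 line, which a figure legend of the study calls biological replicates.

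The serous lineage of the line was visible in its markers. PAX8, the Müllerian lineage factor, lay at 570.1, 531 and 409 CPM with DMSO and 623, 589 and 587 CPM with i-BET151, and WT1 at 156, 151 and 153 CPM with DMSO and 175, 171 and 185 with i-BET151. EPCAM lay at 458, 447 and 358 CPM with DMSO and 429.9, 447 and 339.8 with i-BET151. None of these 3 genes passed the test (adjusted p = 0.122, 0.0748 and 0.807), although the treated libraries were all above the DMSO libraries for PAX8 and WT1. The list of serous lineage markers as a whole was less steady, since 11 of 26 fell and 3 rose (median log2 fold change −0.48), as described further below. MUC16, the CA125 antigen, lay at 309, 255 and 57.0 CPM with DMSO and 209, 227 and 124 with i-BET151, so that replicate 3 was the lowest library of both groups. Most markers of other cell types were low or without counts, though COL1A1 was not. Of 15 leukocyte markers 4 had enough counts to be tested and 6 had no count in any of the 6 libraries, CD3E and CD68 among them, and PTPRC had at most 3 counts. The summed level of this list was 5.24 ± 1.09 CPM (mean ± SD, n = 3) with DMSO and 1.58 ± 0.619 CPM with i-BET151, and CD4 (−2.18 on the log2 scale) fell. The summed level of the fibroblast list was 32.4 ± 4.74 and 25.8 ± 2.76 CPM, nearly all of it COL1A1, and none of its 3 tested genes passed. The endothelial list summed to 6.43 ± 2.04 and 4.96 ± 1.85 CPM, and CLDN5 (1.96) and FLT1 rose, the latter from 1 count to 39 counts over the 3 libraries. FLT1 no longer passed when any 1 of the 6 libraries was left out. CD4 no longer passed without DMSO replicate 3, i-BET151 replicate 1 or i-BET151 replicate 2, and CLDN5 without DMSO replicate 2 or i-BET151 replicate 2.

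Called falls were most frequent at a mean log2 CPM from 0 to 4 and scarce among abundant genes, where called rises outnumbered them. From 0 to 2, 16.3% of genes were called lower and 7.74% called higher, and from 2 to 4, 13.8% and 8.71%. At a mean log2 CPM of 0 or less, 7.498% were called lower and 2.27% called higher. Above a mean log2 CPM of 8, 0.863% were called lower and 3.45% called higher. Protein-coding genes were called higher in 6.07% and lower in 8.87% of cases, and long noncoding RNAs in 4.14% and 7.0%.

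**Figure D1:**
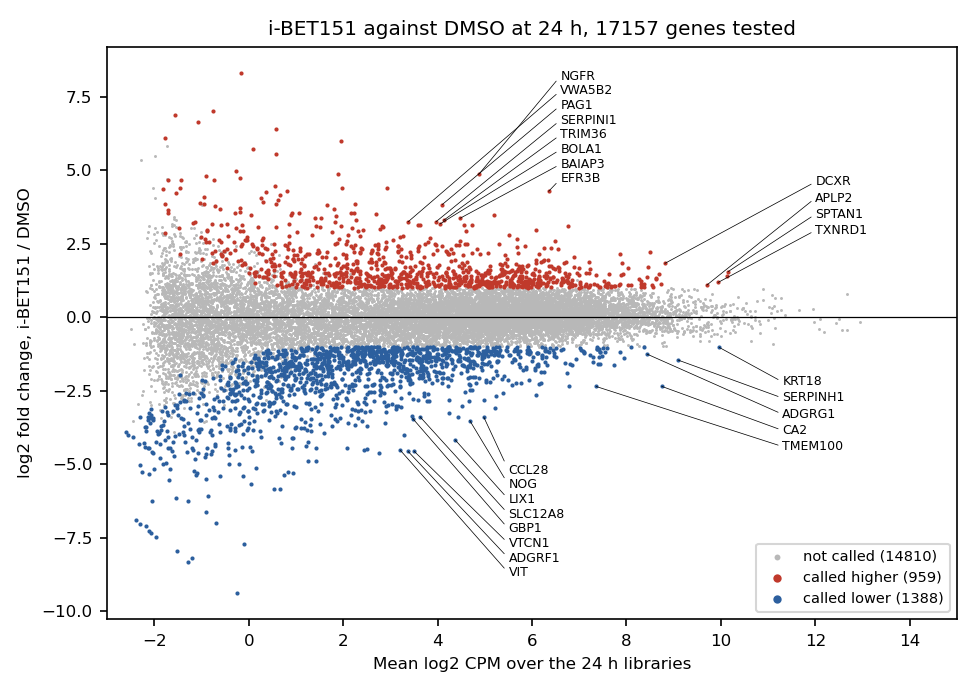
Log2 fold change of i-BET151 against DMSO at 24 h (y axis) against mean log2 CPM (x axis), 1 point per gene tested, red for the 959 called higher and blue for the 1388 called lower. The genes with the largest changes among abundant protein-coding genes and the genes with the largest gains and losses of CPM are named, but for 1 gene not reported here, and called genes above a mean log2 CPM of 8 lie mostly on the upper side.

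More genes were called at 24 h than at 4 h. At 4 h, 1286 of 18154 genes (7.08%) were called, 740 higher (4.08%) and 546 lower (3.01%). The 4 h counts rest on 18154 genes, the number in the test of the difference between the times, and the 24 h counts on 17157. The counts of the 2 times therefore do not come from like sets of genes. The change of the effect between the times was called for 1217 genes (6.70%), 454 with a higher (2.50%) and 763 with a lower effect (4.20%) at 24 h. Of the 1388 genes called lower at 24 h, 227 (16.4%) were already called lower at 4 h, and for 636 (45.8%) the fall was larger at 24 h than at 4 h in the test of the difference, which used the 4 h libraries with their own DMSO controls. Of the 959 genes called higher, 393 (41.0%) were already called higher at 4 h, and for 234 (24.4%) the rise was larger at 24 h. These genes were chosen for their change at 24 h, which favours a larger effect at that time.

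Among called protein-coding genes of at least moderate abundance (mean log2 CPM of at least 3), the largest rise was that of NGFR, the p75 neurotrophin receptor (ENSG00000064300.9, GRCh38 chr17:49495293-49515008, plus strand, where an antisense transcript, NGFR-AS1, overlaps it). NGFR lay at 1.46, 1.45 and 0.435 CPM with DMSO and 33.2, 30.1 and 34.1 CPM with i-BET151 (log2 fold change 4.86 ± 0.30 (SE), adjusted p = 2.80e-06). Its groups were far apart, and the rise was already present at 4 h (log2 fold change 3.86). EFR3B, a membrane scaffold of a phosphatidylinositol 4-kinase (ENSG00000084710.14, chr2:25042076-25159135, plus strand), lay at 5.73, 6.72 and 4.02 CPM with DMSO and 109, 109 and 101 CPM with i-BET151 (log2 fold change 4.28 ± 0.17 (SE), adjusted p = 4.27e-07). The treated libraries agreed closely with one another and all lay far above the DMSO libraries. Its rise grew from 2.48 at 4 h to 4.28 at 24 h on the log2 scale (adjusted p of the difference 7.19e-04).

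The other 6 rose less, with log2 fold changes from 3.17 to 3.83. PAG1, a membrane adaptor that recruits CSK, had a log2 fold change of 3.83, and BAIAP3, a factor of vesicle release, one of 3.36. TRIM36, a ubiquitin ligase, lay at 2.49, 1.72 and 2.14 CPM with DMSO and 24.1, 24.1 and 14.3 with i-BET151 (log2 fold change 3.29), with replicate 3 the lowest treated library. SERPINI1, the serpin neuroserpin, had a log2 fold change of 3.25 and VWA5B2 one of 3.24. BOLA1, a mitochondrial iron-sulphur factor, had one of 3.17, but an exon of the histone gene H2AC21 overlaps it on the opposite strand and the strand setting of the counting is not given in the sources used here, so that reads of the 2 genes cannot be told apart. BAIAP3 and VWA5B2 likewise overlap TSR3 and ALG3. Of genes named below, exons of ADM2, BRD3, CRYAB, ETV4, IFIT2, IFIT3, MED12L, MXD3, NDUFC1, PARP9, STAT5A, STAT6 and THRSP are also overlapped on the opposite strand, by SBF1, BRD3OS, HSPB2, DHX8, LIPA (both IFIT genes), IGSF10, PRELID1, NAA15, DTX3L, STAT5B, NAB2 and NDUFC2 in that order.

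Several of the largest falls were of secreted or surface proteins. ADGRF1, an adhesion G protein-coupled receptor (ENSG00000153292.16, chr6:46997708-47042350, minus strand), lay at 26.5, 23.7 and 37.9 CPM with DMSO and 1.02, 1.41 and 1.29 CPM with i-BET151 (log2 fold change −4.57 ± 0.28 (SE), adjusted p = 2.80e-06). VTCN1, the immune checkpoint ligand B7-H4 (ENSG00000134258.17, chr1:117143587-117210960, minus strand), lay at 33.0, 24.9 and 36.6 CPM with DMSO and 0.696, 0.828 and 2.51 with i-BET151 (log2 fold change −4.56 ± 0.48 (SE), adjusted p = 6.31e-05). For both genes every treated library was below every DMSO library by a wide margin. VIT, an extracellular matrix protein, had a log2 fold change of −4.52 ± 0.27 and LIX1 one of −4.18 ± 0.59, and LIX1 was more than 2 times as high in replicate 3 as in the other libraries of its group, treated or not.

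NOG, the BMP antagonist noggin, lay at 63.5, 63.0 and 68.6 CPM with DMSO and 6.73, 5.65 and 4.58 with i-BET151 (log2 fold change −3.52). GBP1, an interferon-induced GTPase, had a log2 fold change of −3.45, CCL28, a mucosal chemokine, one of −3.40, and SLC12A8, a transporter, one of −3.39. NOG was the 1 gene of these 8 with most of its fall at 4 h (−2.67). At 4 h the others had log2 fold changes of −1.60 (ADGRF1) to −0.38 (VIT), and for all 8 the fall was larger at 24 h (adjusted p of the difference from 4.16e-06 for VIT to 0.0316 for NOG).

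**Figure D2:**
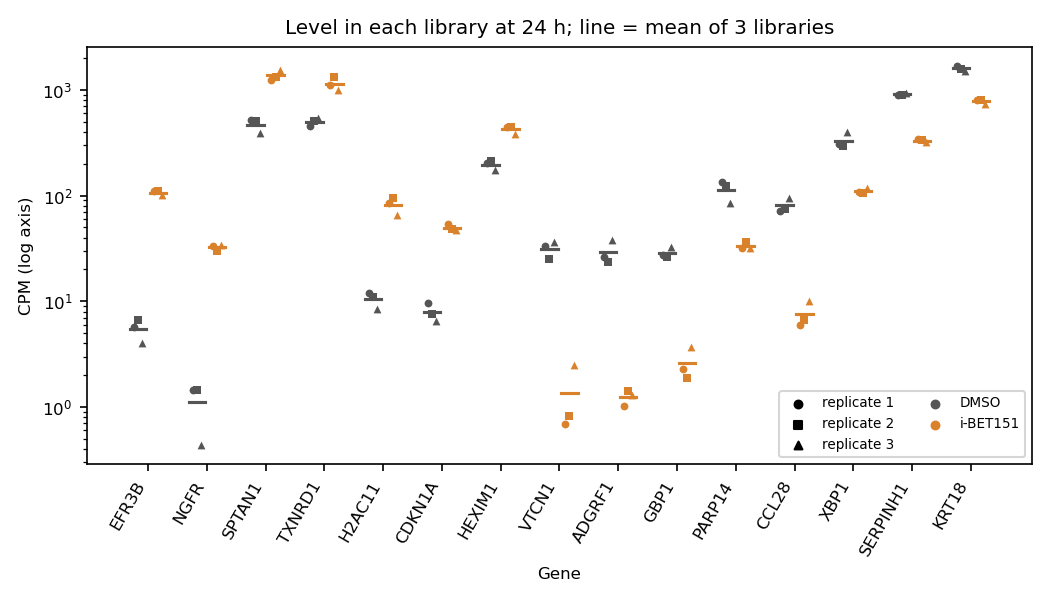
CPM on a log axis of 15 genes named in the text in each of the 6 libraries, with DMSO in grey and i-BET151 in orange, a symbol per replicate and a line at the mean of 3 libraries. For every gene shown the 3 treated libraries lie on 1 side of the 3 DMSO libraries, and replicate 3 is the highest treated library for VTCN1, GBP1 and CCL28.

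In CPM, which are not corrected for transcript length and so rank shares of reads rather than transcript numbers, the largest gains among called genes included those of structural and redox genes. SPTAN1, the cytoskeletal alpha-II spectrin, gained most CPM of the called genes and lay at 515, 505 and 389 CPM with DMSO and 1246, 1328 and 1545 CPM with i-BET151 (log2 fold change 1.55). TXNRD1, the cytosolic thioredoxin reductase, lay at 459, 504 and 541 CPM with DMSO and 1101, 1313 and 997 with i-BET151 and had a log2 fold change of −0.17 at 4 h against 1.18 at 24 h. APLP2, a homologue of the amyloid precursor, and DCXR, a xylulose reductase, had log2 fold changes of 1.09 and 1.83.

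The largest losses of CPM among called genes were of a keratin, an enzyme, a collagen chaperone and surface proteins. KRT18, a keratin of simple epithelia, fell most and lay at 1682, 1584 and 1511 CPM with DMSO and 808, 794 and 739.8 CPM with i-BET151 (log2 fold change −1.03, 0.09 at 4 h), and its gene overlaps KRT8 on the opposite strand. CA2, carbonic anhydrase 2, lay at 917, 919 and 885 CPM with DMSO and 186, 208 and 138 with i-BET151, a log2 fold change of −2.35. SERPINH1, the chaperone HSP47 of procollagen, lay at 898, 898 and 939.6 CPM with DMSO and 340.3, 335 and 319 with i-BET151, a log2 fold change of −1.46. In all 3 genes no treated library came near a DMSO library. ADGRG1 and TMEM100 had log2 fold changes of −1.26 and −2.36. CA2 (−2.04) and TMEM100 (−2.79) had already fallen at 4 h, whereas SERPINH1 was at −0.05 then and its effect differed between the times (adjusted p = 4.16e-06).

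Among the targets of the drug and the 7SK complex, HEXIM1 was the only gene called. HEXIM1 (ENSG00000186834.3, chr17:45148475-45152099, plus strand) lay at 203, 210.3 and 174 CPM with DMSO and 446, 449 and 381 CPM with i-BET151 (log2 fold change 1.12 ± 0.12 (SE), adjusted p = 5.33e-05), with the groups well apart and a similar rise at 4 h (1.25). BRD2 lay at 149.6, 168 and 104 CPM with DMSO and 228, 225 and 211 with i-BET151, a log2 fold change of 0.66 (adjusted p = 0.00781). BRD3 (0.44, adjusted p = 0.0282) also passed, with every treated library above every DMSO library, but did not without DMSO replicate 1, DMSO replicate 2, i-BET151 replicate 2 or i-BET151 replicate 3. CCNT1, the cyclin of P-TEFb, rose by 0.38 and MEPCE, the 7SK capping enzyme, fell by 0.38 on the log2 scale, while CDK9 had a log2 fold change of 0.03. Together 5 of 10 tested members rose and 1 fell, and the number that rose was 2 without DMSO replicate 1, DMSO replicate 2 or i-BET151 replicate 3 and 3 without i-BET151 replicate 2. The fall of MEPCE did not pass without DMSO replicate 2, DMSO replicate 3, i-BET151 replicate 1 or i-BET151 replicate 2.

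Histone genes were the group with the largest share of rises. Replication-dependent histone mRNAs are made in S phase, end in a stem-loop in place of a poly-A tail, and so enter poly-A libraries only through their polyadenylated forms. Of 49 members with enough counts to be tested (of 63 in the table), 32 rose (65.3%) and 0 fell, with a median log2 fold change of 1.86 at 24 h and 1.33 at 4 h. In replicates 1 and 2 alone 43 rose. The summed level of all members was 668 ± 40.9 CPM (SD, n = 3) with DMSO and 2102 ± 243 CPM with i-BET151. The groups did not overlap for 37 members, all higher, beside 23.9% of all genes tested.

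The promoters of 4 of these genes, all of which rose, are shown for the letters they hold, the octamer ATTTGCAT bound by OCT1 and the TATA box TATAAA. The stretches end at the base before the RefSeq start (GRCh38.p14), and capitals mark both motifs on either strand. In H2AC11 the TATA letters of both strands overlap. They lie at chr6:26216689-26216756 (minus strand), chr6:26251545-26251613 (plus strand), chr1:149886683-149886792 (minus strand) and chr6:27132933-27133042 (plus strand).
H2BC8: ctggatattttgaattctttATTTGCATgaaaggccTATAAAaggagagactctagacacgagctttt
H2BC9: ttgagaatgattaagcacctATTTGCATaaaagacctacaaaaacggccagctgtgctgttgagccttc
H2BC21: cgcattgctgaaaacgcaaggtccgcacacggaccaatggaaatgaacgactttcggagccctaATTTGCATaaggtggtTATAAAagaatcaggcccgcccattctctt
H2AC11: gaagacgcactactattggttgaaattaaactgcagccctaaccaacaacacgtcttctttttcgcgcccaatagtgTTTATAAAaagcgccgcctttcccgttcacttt
The octamer begins at −48 in H2BC8, −49 in H2BC9 and −46 in H2BC21, counted from the start, and H2AC11 holds it on the minus strand at −208, outside the stretch shown. Within 250 bases before the start, it was found on either strand in 18 of 46 histone genes of the list with a RefSeq promoter, and in 1.81% of all 11916 tested genes with one. TATAAA was found in 30 of 46 against 8.26%, and CCAAT in 37 of 46 against 41.2%. A match of letters is a description and not a bound site.

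H2AC11, a core histone H2A gene, lay at 11.9, 10.95 and 8.54 CPM with DMSO and 85.7, 94.1 and 65.7 CPM with i-BET151 (log2 fold change 2.96 ± 0.16 (SE), adjusted p = 2.16e-06). H3C10, of histone H3, lay at 9.55, 8.58 and 4.99 CPM with DMSO and 64.4, 62.4 and 32.2 with i-BET151, a log2 fold change of 2.78. In both genes replicate 3 was the lowest library of each group and the groups were far apart. Among the H2B genes printed above, H2BC21 lay at 82.2, 76.3 and 49.3 CPM with DMSO and 354, 347 and 225 with i-BET151 (log2 fold change 2.15), H2BC8 had a log2 fold change of 1.91 and H2BC9 one of 2.26. The linker histone H1-2 had one of 1.37. H2BC12 lay at 69.0, 119 and 145 CPM with DMSO and 213, 158 and 168 with i-BET151 and did not pass (adjusted p = 0.0515). H3C15 and H3C14 are near-identical copies among which counting can split or drop reads. H3C15 had 2 counts in the 3 DMSO libraries together and 141 with i-BET151, a ratio of 60.4 (95% exact interval 16.4 to 503, counting error only), and H3C14 had 3 and 44 counts (ratio 12.6, 4.03 to 63.2).

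Histone genes outside the clusters, whose mRNAs carry poly-A tails, also rose for the most part, 7 of 11 against 2 that fell (median 0.69). H2AJ, a histone H2A variant, lay at 37.0, 34.2 and 41.6 CPM with DMSO and 128, 116 and 123 with i-BET151 (log2 fold change 1.70). H3-3B, which codes for H3.3, rose by 0.94 on the log2 scale. MACROH2A2 went the other way and lay at 103, 102 and 100.2 CPM with DMSO and 31.6, 28.7 and 39.7 with i-BET151, a log2 fold change of −1.61.

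Interferon-stimulated genes were the group with the largest share of falls. These genes answer to interferon through a complex that holds STAT2 and IRF9, which binds the response element known as ISRE, and several are expressed in tumour cells without added interferon. Of 46 tested, 32 fell (69.6%, beside 16.6% of all genes) and 5 rose, with a median log2 fold change of −1.57 against −0.24 at 4 h. At 4 h 12 of them had fallen and 2 had risen, beside 10.3% and 8.74% of all genes, and for 19 the effect was lower at 24 h than at 4 h, beside 6.82%. The effect was higher at 24 h for 1 member, beside 6.99%. The number that fell was 39 in replicates 1 and 2 alone and 27 to 32 when each library was left out.

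Promoter stretches of 6 of these genes are shown with the ISRE core in capitals, the letters GAAA, any 2 bases and GAAA on either strand, 4 of genes that fell and then 2 of genes that rose. They lie at chr1:78620264-78620404 (plus strand), chr1:89065306-89065355 (minus strand), chr19:17405725-17405780 (minus strand), chr10:89327821-89327904 (plus strand), chr1:27672256-27672368 (minus strand) and chr4:88456974-88457074 (plus strand).
IFI44L: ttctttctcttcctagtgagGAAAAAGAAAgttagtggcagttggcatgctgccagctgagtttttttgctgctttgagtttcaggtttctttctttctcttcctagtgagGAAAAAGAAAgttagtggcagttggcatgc
GBP1: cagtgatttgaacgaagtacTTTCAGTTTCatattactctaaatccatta
BST2: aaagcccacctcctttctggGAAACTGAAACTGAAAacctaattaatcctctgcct
IFIT3: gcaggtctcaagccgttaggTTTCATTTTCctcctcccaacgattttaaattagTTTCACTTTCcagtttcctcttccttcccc
IFI6: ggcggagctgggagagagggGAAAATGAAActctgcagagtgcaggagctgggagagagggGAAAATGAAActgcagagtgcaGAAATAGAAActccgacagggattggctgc
HERC5: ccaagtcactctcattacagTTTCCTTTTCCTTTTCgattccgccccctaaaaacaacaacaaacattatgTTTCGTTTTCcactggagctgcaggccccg
The ISRE core was found within 250 bases before the start in 25 of 37 interferon-stimulated genes with a RefSeq promoter, and in 3.18% of all tested genes with one. It was present in 17 of the 25 that fell, 2 of the 3 that rose and 6 of the 9 that did not pass.

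Antiviral effectors were among the members that fell. OAS1, which makes 2′-5′ oligoadenylate, lay at 13.2, 10.3 and 10.8 CPM with DMSO and 0.795, 0.890 and 1.17 CPM with i-BET151 (log2 fold change −3.59 ± 0.26 (SE), adjusted p = 5.70e-06). TRIM22, a restriction factor, lay at 3.58, 2.24 and 10.2 CPM with DMSO and 0.273, 0.215 and 0.419 with i-BET151 (log2 fold change −4.13), the third DMSO library being the highest. IFI44L lay at 5.63, 4.44 and 9.31 CPM with DMSO and 0.174, 0.245 and 0.927 with i-BET151 (log2 fold change −3.85). No treated library reached a DMSO library in these 3 genes. IFIT2, an RNA-binding antiviral protein, had a log2 fold change of −3.70, IFIT3 one of −2.56 and BST2, the virus tether tetherin, one of −3.17. Among the more abundant members, PARP9 lay at 135, 124 and 129.5 CPM with DMSO and 27.7, 29.3 and 30.4 with i-BET151 (log2 fold change −2.15), PARP14 had a log2 fold change of −1.77 and the membrane protein IFITM3 one of −2.30.

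The members that rose were upstream factors and a few effectors. The factor IRF7 lay at 11.6, 12.6 and 10.8 CPM with DMSO and 36.5, 31.2 and 37.6 with i-BET151 (log2 fold change 1.59, 1.88 at 4 h). STAT2 had a log2 fold change of 0.52. For both genes the treated libraries were all above the DMSO libraries. HERC5, the ISG15 ligase, and IFI6 had log2 fold changes of 0.83 and 0.78.

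**Figure D3:**
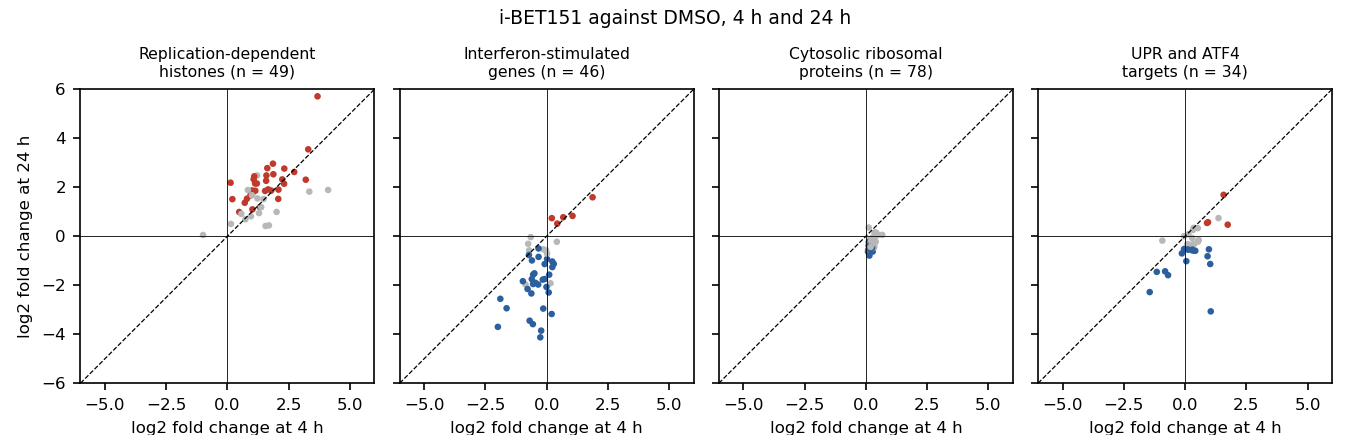
Log2 fold change of i-BET151 against DMSO at 4 h (x axis) and 24 h (y axis) for the members of 4 gene groups, red where a gene rose at 24 h, blue where it fell and grey where it did not pass, with a dashed line of equal effects. Histone genes lie above 0 at both times but for 1 gene at 4 h, while the median interferon-stimulated gene lies at −0.24 at 4 h and −1.57 at 24 h.

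NF-kB targets and chemokines fell too, 13 of 22 tested (59.1%) against 1 that rose (NFKBIE, 0.61; 2 rose with the block and 2 without i-BET151 replicate 1), with a median of −1.44 at 24 h and −0.48 at 4 h. The promoters of CXCL1 at chr4:73869294-73869344 (plus strand), CCL20 at chr2:227813615-227813664 (plus strand) and NFKBIA at chr14:35404801-35404850 (minus strand) are shown for the kappa-B letters, GGGA, any 3 bases and TCC, in capitals on either strand.
CXCL1: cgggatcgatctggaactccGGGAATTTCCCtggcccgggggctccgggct
CCL20: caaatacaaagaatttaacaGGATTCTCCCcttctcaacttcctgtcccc
NFKBIA: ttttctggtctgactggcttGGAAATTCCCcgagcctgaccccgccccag
These letters were found in 11 of 19 members with a RefSeq promoter and in 6.35% of all tested genes with one. CXCL1, a neutrophil chemokine, lay at 15.4, 16.5 and 23.7 CPM with DMSO and 1.37, 0.675 and 3.92 CPM with i-BET151 (log2 fold change −3.23 ± 0.66 (SE), adjusted p = 0.00356). CXCL8, interleukin 8, lay at 5.01, 4.93 and 5.26 CPM with DMSO and 0.348, 0.307 and 0.718 with i-BET151, a log2 fold change of −3.46. Both had already fallen at 4 h (−2.41 and −2.60). CCL20 had 46 counts in the DMSO libraries and 1 in the treated ones (ratio 0.0186, 95% exact interval 0.000461 to 0.109). CCL28 lay at 71.8, 74.8 and 95.3 CPM with DMSO and 5.99, 6.72 and 10.2 with i-BET151, and its effect was lower at 24 h than at 4 h (adjusted p = 5.82e-05). The inhibitor NFKBIA had a log2 fold change of −1.04 and the subunits NFKB1 and RELB ones of −1.02 and −1.22, whereas RELA did not pass (0.12, adjusted p = 0.567). CCR1 had too few counts to be tested.

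In MHC class I presentation the immunoproteasome and the light chain moved in opposite directions. The catalytic subunits PSMB8 and PSMB10 had log2 fold changes of −2.57 and −2.94. PSMB9, which overlaps PSMB8 on the opposite strand, lay at 5.29, 4.17 and 5.19 CPM with DMSO and 1.96, 2.24 and 1.41 CPM with i-BET151 (log2 fold change −1.38), after a rise of 0.83 at 4 h. NLRC5, the activator of class I genes, had a log2 fold change of −1.69 but did not pass without DMSO replicate 1, DMSO replicate 2, DMSO replicate 3 or i-BET151 replicate 1. B2M, the shared light chain, lay at 305, 313 and 369 CPM with DMSO and 574, 557 and 464 with i-BET151, a rise of 0.69, and HLA-B rose by 0.61, while HLA-C (0.29) and HLA-E (0.20) did not pass. Together 8 of 18 fell and 2 rose, and the number that fell was 5 without i-BET151 replicate 1, i-BET151 replicate 2 or DMSO replicate 3.

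Genes of the IL6 family and JAK-STAT signalling were split, 7 of 28 higher (25%) and 7 lower (25%), beside 17.2% and 16.6% of all genes. LIF, a cytokine of the IL6 family, lay at 21.7, 24.3 and 12.5 CPM with DMSO and 1.54, 1.38 and 1.91 with i-BET151 (log2 fold change −3.59, −4.29 at 4 h). STAT6 lay at 16.96, 13.6 and 13.4 CPM with DMSO and 3.502, 3.59 and 3.38 with i-BET151 (log2 fold change −2.07) and had been at 0.05 at 4 h. STAT5A and JAK3 had log2 fold changes of −4.43 and −1.69. In replicates 1 and 2 alone 11 members rose and 11 fell, with the replicate number as a block 11 rose, and the number that rose was 4 without DMSO replicate 2.

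Genes of the unfolded protein response and of the amino acid response under ATF4 fell more often than they rose. Of 34 tested, 16 fell (47.1%) and 4 rose, whereas at 4 h 5 had fallen and 11 had risen, beside 10.3% and 8.74% of all genes. The median was 0.32 at 4 h and −0.34 at 24 h. For 14 the effect was lower at 24 h than at 4 h, beside 6.82% of all genes. XBP1, the factor of the IRE1 branch, lay at 306, 293 and 395 CPM with DMSO and 108, 105 and 118 CPM with i-BET151 (log2 fold change −1.59 ± 0.12 (SE), adjusted p = 8.45e-06). TRIB3, a pseudokinase target of ATF4, lay at 35.8, 37.3 and 55.6 CPM with DMSO and 13.4, 11.9 and 21.6 with i-BET151 (log2 fold change −1.45). HSPA5, the chaperone BiP, lay at 1285, 1249 and 1179.5 CPM with DMSO and 835, 873 and 769 with i-BET151, a log2 fold change of −0.58 against 0.32 at 4 h. In each of these genes the treated libraries were below all DMSO libraries.

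ATF4 itself fell (−0.59, adjusted p = 0.0448), as did the serine synthesis genes PSAT1 (−0.70) and PHGDH (−0.55) and the low-abundance genes GDF15 (−3.07) and ADM2 (−2.28). ERN1, which codes for the sensor IRE1, rose instead (9.93, 8.41 and 7.94 CPM with DMSO and 26.5, 31.5 and 26.9 with i-BET151, log2 fold change 1.69). With the replicate block 7 members rose in place of 4.

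Redox and degradation genes were among the groups with more rises than falls. In the NRF2 pathway 10 of 25 rose and 6 fell (median 0.38). GCLC, the rate-limiting enzyme of glutathione synthesis, lay at 38.7, 36.9 and 46.6 CPM with DMSO and 84.0, 86.8 and 82.8 CPM with i-BET151 (log2 fold change 1.05), AKR1C3 had a log2 fold change of 1.20, and the cystine transporter gene SLC7A11 had one of −0.95. In replicates 1 and 2 alone 17 members rose, and the number that fell was 3 without DMSO replicate 2 or i-BET151 replicate 2. Of 51 autophagy and lysosome genes 18 rose and 6 fell. MAP1LC3B, the autophagosome protein LC3B, lay at 41.1, 40.2 and 43.5 CPM with DMSO and 108, 107 and 98.2 with i-BET151 (log2 fold change 1.32), and NEU1, lysosomal sialidase, rose by 1.26. The factor TFEB lay at 3.08, 2.45 and 3.18 CPM with DMSO and 0.795, 0.552 and 0.269 with i-BET151 and the protease gene CTSS at 5.01, 5.82 and 7.13 CPM with DMSO and 0.174, 0.767 and 0 with i-BET151, with log2 fold changes of −2.41 and −4.26, so that all treated libraries were below 1 CPM in both genes.

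Chaperone, cholesterol, fatty acid and glycolysis genes went in both directions, as did all genes tested (17.2% rose and 16.6% fell). Heat shock genes rose in 11.1% and fell in 18.5% of cases, cholesterol genes in 16.7% each and glycolysis genes in 21.2% and 15.2%. Fatty acid genes rose in 26.1% and fell in 30.4%. Of 27 heat shock genes 3 rose and 5 fell, with HSP90AA1, an HSP90 gene, at 4789, 4429 and 3279.7 CPM with DMSO and 8099.7, 7899 and 5610.5 with i-BET151 (log2 fold change 0.79) and the small heat shock gene HSPB1 at −0.99 on the log2 scale. CRYAB, alpha-B crystallin, had a log2 fold change of −2.56 and the cochaperone gene BAG3 one of 0.59. Of 30 cholesterol genes 5 rose and 5 fell, among them ABCG1 (1.49), LSS (0.97) and HMGCS1 (−0.96). With the replicate block 9 heat shock and 9 cholesterol genes fell. The heat shock falls were 2 without DMSO replicate 1 or DMSO replicate 2 and 3 without i-BET151 replicate 1, i-BET151 replicate 2 or i-BET151 replicate 3. The cholesterol falls were 2 without i-BET151 replicate 1, i-BET151 replicate 2 or DMSO replicate 3, and its rises 3 without DMSO replicate 1, DMSO replicate 2, i-BET151 replicate 2 or i-BET151 replicate 3.

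Of 23 fatty acid genes 6 rose and 7 fell. The elongase genes ELOVL4 and ELOVL7 had log2 fold changes of 2.11 and 1.54, the acyl-CoA ligase gene ACSL1 one of 1.57 and THRSP one of −2.54. In the glycolysis and hypoxia list 7 of 33 rose and 5 fell (10 with the replicate block, 2 without DMSO replicate 2 and 3 without DMSO replicate 1, i-BET151 replicate 2 or DMSO replicate 3). EPAS1, the hypoxia-inducible factor HIF-2α, lay at 7.81, 7.65 and 9.18 CPM with DMSO and 34.2, 39.3 and 37.9 with i-BET151 (log2 fold change 2.18), and EGLN3, a prolyl hydroxylase, had a log2 fold change of −1.30. CA12 and ENO2 had ones of −1.18 and 1.18, and CA12 did not pass without DMSO replicate 2, DMSO replicate 3, i-BET151 replicate 2 or i-BET151 replicate 3. Of 3 metallothionein genes tested MT2A rose (1.39).

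Genes of ribosomes and of mitochondrial respiration that passed nearly all fell, by small amounts. Of 78 genes of cytosolic ribosomal proteins 20 fell and 0 rose, with a median log2 fold change of −0.36 at 24 h and 0.24 at 4 h. RPL6 lay at 1231, 1247 and 1481 CPM with DMSO and 866, 814 and 877 CPM with i-BET151 (log2 fold change −0.63), RPL21 had a log2 fold change of −0.79, RPL29 one of −0.64 and RPL35 one of −0.63. The count depended on the libraries, the filter and the scaling. It was 40 without a filter on low counts, 31 with total library size, 52 with the replicate block, 44 in replicates 1 and 2 alone and 7 without i-BET151 replicate 2 and 10 without i-BET151 replicate 1 or DMSO replicate 3. Of 74 nuclear genes of oxidative phosphorylation 23 fell and 1 rose (median −0.28, 0.20 at 4 h), and 36 fell with the block, 13 without i-BET151 replicate 2 and 15 without DMSO replicate 3.

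NDUFC1, a subunit of complex I, lay at 44.9, 52.2 and 56.6 CPM with DMSO and 24.7, 23.8 and 20.6 with i-BET151 (log2 fold change −1.15), ATP5MC1 of the ATP synthase had a log2 fold change of −0.91, NDUFB7 one of −0.76 and NDUFA9 one of −0.90. Of the 13 genes that the mitochondrial genome encodes, MT-ND5 rose (0.49, adjusted p = 0.0209) and 0 fell. MT-ND5 did not pass without DMSO replicate 2, DMSO replicate 3 or i-BET151 replicate 3, and 4 of these genes rose with the block and 3 in replicates 1 and 2 alone. In ribosome biogenesis 28 of 56 fell and 1 rose (median −0.40, −0.27 at 4 h), with 45 falling in replicates 1 and 2 alone. NOP16, RRS1, GAR1 and NIP7, which act in the making of ribosomal subunits, had log2 fold changes of −1.01, −0.97, −0.91 and −0.87. Of 35 proteasome genes 4 rose and 3 fell (5 with the block, 1 without i-BET151 replicate 2), among them PSME4 (0.65), PSMD1 (0.46), PSME2 (−0.74) and PSMB6 (−0.43).

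These shifts lay beside a trend with total exon length. This is the number of bases that the exons of all annotated transcripts of a gene cover together. It can exceed the length of the mRNA. Protein-coding genes with a mean log2 CPM of at least 3 were split into quintiles by this length. The median log2 fold change at 24 h was −0.13 in the shortest quintile (median 2404 bases) and 0.22 in the longest (median 12502 bases). In the ratios of the single replicates the median went from 0.0066 to 0.128 in replicate 1, from −0.12 to 0.22 in replicate 2 and from −0.27 to 0.30 in replicate 3. At 4 h the trend had the opposite slope, from 0.095 to −0.092. The ribosomal protein list had a median of −0.14, −0.29 and −0.52 in the ratios of replicates 1, 2 and 3, and the nuclear oxidative phosphorylation list of −0.087, −0.19 and −0.48. The ribosome biogenesis list had medians of −0.34, −0.35 and −0.41, which differed little between replicates. The median total exon lengths of these lists were 3240, 2662 and 4716 bases in that order. The part of the length trend in these groups was not tested.

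**Figure D4:**
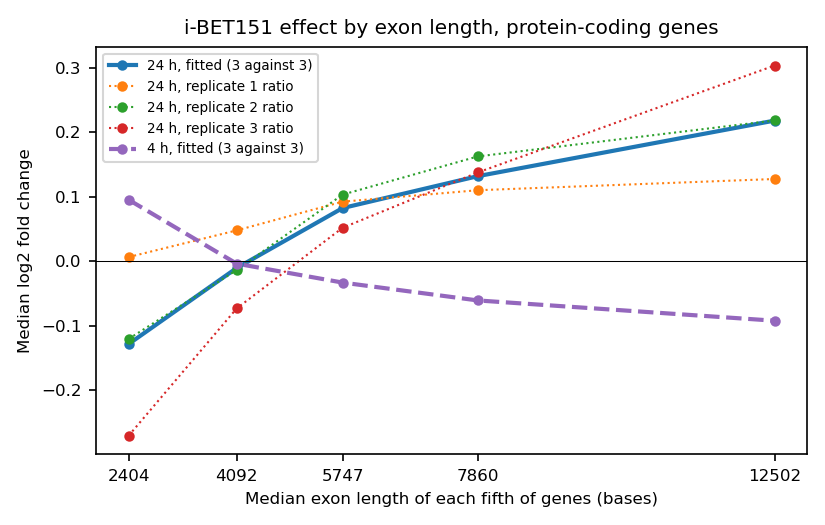
Median log2 fold change of i-BET151 against DMSO (y axis) in quintiles of protein-coding genes by total exon length over all annotated transcripts (x axis, median bases of each). Lines show the fitted effects at 24 h and 4 h and the single ratios of the 3 replicates at 24 h. The 24 h lines climb with length, steepest in replicate 3, and the 4 h line descends.

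Among cell cycle genes CDK inhibitors rose more often than they fell. CDKN1A, which codes for p21 (ENSG00000124762.13, chr6:36676460-36687337, plus strand), lay at 9.55, 7.58 and 6.46 CPM with DMSO and 53.4, 48.3 and 47.2 CPM with i-BET151 (log2 fold change 2.66 ± 0.17 (SE), adjusted p = 3.34e-06). CDKN2D, which codes for p19, lay at 20.2, 19.9 and 17.98 CPM with DMSO and 65.5, 67.5 and 59.1 with i-BET151 (log2 fold change 1.73). CDKN2B, p15, rose by 0.35 on the log2 scale against 1.05 at 4 h, CDKN3 by 0.70 and CDKN1C by 0.62. CDKN2A was the 1 member that fell and lay at 361, 382 and 612 CPM with DMSO and 222, 202 and 266 with i-BET151, with DMSO replicate 3 far above the other DMSO libraries. CDKN1B and CDKN2C did not pass, so that 5 of 8 rose. The number that rose was 4 without DMSO replicate 1, DMSO replicate 2, i-BET151 replicate 1 or i-BET151 replicate 2. It was also 4 without a filter on low counts, and 7 in replicates 1 and 2 alone.

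In the list of G1 cyclins, kinases, RB and E2F, 7 of 20 fell (4 without DMSO replicate 2, i-BET151 replicate 1 or i-BET151 replicate 2) and 2 rose (0 without DMSO replicate 1 or DMSO replicate 2 and 1 without i-BET151 replicate 2 or i-BET151 replicate 3). E2F2 lay at 27.4, 27.5 and 32.3 CPM with DMSO and 12.1, 10.98 and 13.7 with i-BET151 (log2 fold change −1.25), CDK6 had a log2 fold change of −0.80, E2F8 one of −0.66 and CCND3, cyclin D3, one of 0.76. E2F8 did not pass without DMSO replicate 1, DMSO replicate 2, i-BET151 replicate 1 or i-BET151 replicate 2. Of 53 DNA replication genes 7 rose and 11 fell, with the polymerase subunit gene POLE2 at −1.05, the helicase gene MCM5 at −0.74, TIPIN at −0.72 and CLSPN at 0.78 on the log2 scale. In replicates 1 and 2 alone 19 of them fell, against 7 without DMSO replicate 3, and the number that rose was 3 without i-BET151 replicate 1 and 4 without DMSO replicate 1 or i-BET151 replicate 2.

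Mitosis genes rose by small amounts, 23 of 66 against 2 that fell (median 0.20, 0.05 at 4 h), none of them 2-fold. The count that rose was 12 without i-BET151 replicate 2 and 14 without i-BET151 replicate 1, and 36 in replicates 1 and 2 alone. The count that fell was 4 with the block and with total library size, 6 in replicates 1 and 2 alone, and 1 without DMSO replicate 2, i-BET151 replicate 1 or i-BET151 replicate 2. ANLN, the cytokinesis scaffold anillin, lay at 139, 147 and 109 CPM with DMSO and 213, 239.9 and 222 CPM with i-BET151 (log2 fold change 0.77). KIF4A, a mitotic kinesin, had a log2 fold change of 0.74, ASPM one of 0.86 and the cohesin protector gene SGO2 one of 0.75, which did not pass without DMSO replicate 2, DMSO replicate 3, i-BET151 replicate 1 or i-BET151 replicate 2. In ASPM, SGO2 and KIF4A replicate 3 was the lowest library with DMSO. Among 53 genes of double-strand break repair 8 rose and 7 fell, and with the replicate block 16 rose and 11 fell. RAD51D (−1.37), RAD51B (−0.91) and XRCC4 (−1.27) fell, and SLX4, a nuclease scaffold, rose (1.03). TOPBP1, an activator of ATR, had a log2 fold change of −0.17 (adjusted p = 0.547) at 24 h and of −0.95 at 4 h.

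Of 24 p53 target genes 12 rose and 3 fell (5 with the block). RRM2B, a ribonucleotide reductase subunit, lay at 47.5, 42.0 and 46.9 CPM with DMSO and 122, 140.3 and 128 CPM with i-BET151 (log2 fold change 1.52, 0.26 at 4 h), SESN1 rose by 1.05, and the nuclease gene AEN had a log2 fold change of −1.27. In the BCL2 family and the caspases 6 of 28 rose and 6 fell, in both directions 10 in replicates 1 and 2 alone. The rises included the death genes BCL2L11 (1.02), APAF1 (1.12) and CASP9 (0.97). BID, a death agonist, lay at 128, 143 and 197 CPM with DMSO and 48.3, 46.9 and 55.1 with i-BET151, a log2 fold change of −1.64, and BOK had one of −1.15. The survival gene BCL2 had a log2 fold change of −1.76 and CFLAR, the caspase-8 inhibitor, one of −1.27. BCL2L1 lay at 177, 194 and 197 CPM with DMSO and 222, 222 and 231 with i-BET151 and did not pass (adjusted p = 0.0578), and its effect differed from the −0.94 at 4 h (adjusted p of the difference 4.01e-05). With the replicate block it passed at 24 h (adjusted p = 0.0137).

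Epithelial structural genes fell more often than they rose. Of 39 claudin, keratin and desmosome genes 17 fell (43.6%) and 4 rose (median −0.49). CLDN16 lay at 63.5, 69.0 and 37.2 CPM with DMSO and 7.18, 6.93 and 6.61 CPM with i-BET151 (log2 fold change −3.03 ± 0.26 (SE), adjusted p = 1.84e-05), and KRT4 lay at 56.9, 55.5 and 135 CPM with DMSO and 12.99, 11.04 and 28.3 with i-BET151 with replicate 3 the highest library of both groups (log2 fold change −2.24). KRT16 had a log2 fold change of −2.61, KRT17 one of −1.73, CLDN1 one of −1.81 and the low-abundance KRT5 one of −4.06. The desmosomal plaque genes DSP (0.92) and JUP (0.51) rose, as did TJP1 (0.74) and CLDN6 (0.66), while the desmosomal cadherin DSC2 fell (−1.01). With the replicate block 7 members rose.

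Among 26 serous lineage markers 11 fell and 3 rose, 5 with the block (median −0.48), and at 4 h none of them had passed, beside 8.74% of all genes that rose and 10.3% that fell. MUC1 lay at 26.9, 26.7 and 38.5 CPM with DMSO and 3.23, 4.97 and 4.66 CPM with i-BET151 (log2 fold change −2.84). The kallikrein genes KLK6 and KLK8 had log2 fold changes of −2.11 and −1.03 (KLK8 did not pass without DMSO replicate 1, DMSO replicate 2, DMSO replicate 3, i-BET151 replicate 1 or i-BET151 replicate 2), the folate receptor gene FOLR1 one of −0.93 and the factor MECOM one of −0.91, while SOX17 rose by 0.57. In the epithelial-mesenchymal list 1 of 20 rose, CDH1, E-cadherin (224, 223 and 244 CPM with DMSO and 348, 402 and 468 with i-BET151, log2 fold change 0.82), and 4 fell, among them ITGB6 (−2.56), TNC (−0.95) and OVOL2 (−0.66). Of 43 collagen, laminin and integrin genes 9 rose and 8 fell (15 with the replicate block), with COL27A1 at −2.73, ITGA5 at −1.53 and COL9A2 at −1.38 on the log2 scale.

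HOX genes, which set positional identity, fell in 11 of 23 cases and rose in 2 (median −0.69, −1.06 at 4 h), and the number that fell was 7 without i-BET151 replicate 2. HOXA10 lay at 1.68, 2.10 and 2.31 CPM with DMSO and 0.348, 0.460 and 0.478 CPM with i-BET151 (log2 fold change −2.24). HOXD11 and HOXA11 were below 2 CPM in every library and had log2 fold changes of −4.45 and −3.40, and HOXA11 did not pass without DMSO replicate 1, DMSO replicate 2, DMSO replicate 3, i-BET151 replicate 1 or i-BET151 replicate 2. HOXC8 had 48 counts with DMSO and 2 with i-BET151 (ratio 0.0357, 95% exact interval 0.00420 to 0.136). The summed level of the HOX list was 212 ± 4.11 CPM with DMSO and 217 ± 7.78 CPM with i-BET151.

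Transporters and neuronal genes rose more often than they fell. Of 30 ABC transporter genes 13 rose and 5 fell (2 without DMSO replicate 2 and 3 without i-BET151 replicate 1, i-BET151 replicate 2 or DMSO replicate 3). ABCA5 lay at 5.60, 4.13 and 3.45 CPM with DMSO and 36.2, 38.9 and 26.8 CPM with i-BET151 (log2 fold change 2.95 ± 0.24 (SE), adjusted p = 1.29e-05). ABCB1, the drug efflux pump P-glycoprotein, lay at 0.218, 0.103 and 0 CPM with DMSO and 1.59, 2.24 and 2.75 with i-BET151 (log2 fold change 4.29), and ABCA3 had a log2 fold change of 1.55. ABCD2 had no count in the DMSO libraries and 50 with i-BET151. Of 35 synaptic and neuronal genes 14 rose and 3 fell (median 0.41). CHGA, chromogranin A of secretory granules, lay at 2.55, 2.58 and 2.28 CPM with DMSO and 14.9, 14.5 and 14.2 with i-BET151 (log2 fold change 2.55), the synaptic vesicle gene SYP had a log2 fold change of 2.91 and the neurofilament gene NEFH one of 2.42.

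**Figure D5:**
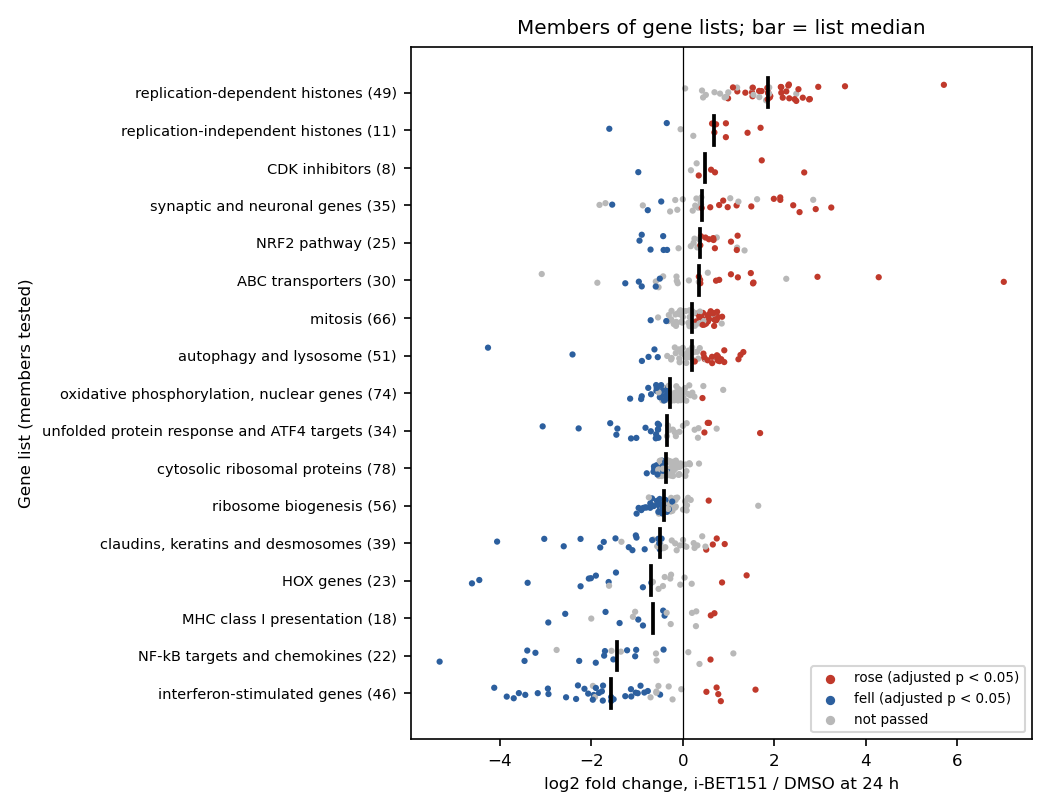
Log2 fold change of i-BET151 against DMSO at 24 h (x axis) of the tested members of gene lists (y axis, with the number tested), red where a gene rose, blue where it fell, grey where it did not pass, and a bar at the list median. The median is 1.86 for replication-dependent histones and −1.57 for interferon-stimulated genes.

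Signalling lists held changes in both directions. In the WNT list 9 of 41 rose and 7 fell, and 13 fell with the replicate block. WNT5A, a ligand of the noncanonical branch, lay at 53.3, 54.5 and 80.0 CPM with DMSO and 11.4, 13.2 and 20.3 CPM with i-BET151 (log2 fold change −2.07, −2.19 at 4 h). LGR5, an R-spondin receptor, had a log2 fold change of −2.62, WNT10A one of −2.04 and the receptor gene FZD2 one of −1.57. Of 40 TGF-beta and BMP genes 10 rose (25%) and 10 fell (25%), or 16 with the block. Beside NOG, the receptor gene ACVR1C (3.54) and the ligand genes BMP8A (2.77) and TGFB3 (−1.71) were among those that passed, and SMAD4 did not pass (0.27, adjusted p = 0.0934) but did with the block (adjusted p = 0.0247).

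In the Notch list 8 of 24 rose and 5 fell. The ligand gene DLL4 lay at 0.405, 0.551 and 0.201 CPM with DMSO and 3.75, 3.87 and 5.83 with i-BET151 (log2 fold change 3.53), HES6 had a log2 fold change of 1.82, the glycosyltransferase gene LFNG one of 1.49 and the target HEY1 one of −1.06. In the YAP list 3 of 19 rose (5 with the block) and 5 fell, with AXL at −2.15, ANKRD1 at −1.73, TEAD2 at −0.98 and the Hippo kinase gene STK3 at 0.85, and the number that fell was 3 without i-BET151 replicate 1.

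Of 33 genes of MAPK feedback and ERBB ligands 6 rose and 9 fell, 14 with the block and 5 without DMSO replicate 1, DMSO replicate 2 or i-BET151 replicate 2. NRG1, the ERBB3 ligand neuregulin 1, lay at 12.9, 17.3 and 15.8 CPM with DMSO and 3.95, 3.34 and 2.003 CPM with i-BET151 (log2 fold change −2.30). The ETS factors ETV4 and ETV5 went apart, with log2 fold changes of −1.59 and 1.40, and SPRED3, a RAS inhibitor, had one of −1.87. MAP3K3, a MAPK kinase kinase, lay at 31.2, 26.7 and 30.3 CPM with DMSO and 93.1, 90.7 and 109 with i-BET151 (log2 fold change 1.73). Among 23 AP-1 and immediate early genes 9 rose and 1 fell (0 without i-BET151 replicate 2), with FOS at 1.41, KLF2 at 2.49, NR4A3 at 2.47 and the low-abundance EGR2 at 2.61 on the log2 scale. EGR2 did not pass without DMSO replicate 2, i-BET151 replicate 1, i-BET151 replicate 2 or i-BET151 replicate 3.

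MYC, a frequent target of BET inhibition, lay at 23.7, 24.01 and 39.4 CPM with DMSO and 17.6, 17.6 and 25.8 CPM with i-BET151 and did not pass (log2 fold change −0.51, adjusted p = 0.115), DMSO replicate 3 being the highest library. With the replicate block MYC passed (log2 fold change −0.50, adjusted p = 0.00235). MYCN lay at 1.68, 1.55 and 2.38 CPM with DMSO and 0.248, 0.337 and 0.508 with i-BET151 (log2 fold change −2.35). The MAX partners MXD1 (1.39), MXD3 (0.73) and MXD4 (0.94) rose, and in all 6 of 13 rose and 1 fell (3 with the block, 3 without i-BET151 replicate 3). ZHX2, a homeobox repressor, lay at 177, 168 and 140.3 CPM with DMSO and 34.5, 33.96 and 31.5 with i-BET151 (log2 fold change −2.28). DIDO1 (−0.15, adjusted p = 0.41) and E4F1 (0.04, adjusted p = 0.877) did not pass, and the proteasome gene PSMB5 had a log2 fold change of −0.35 (adjusted p = 0.0282).

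Of 35 nuclear receptor genes 7 rose and 9 fell, and the number that rose was 3 without i-BET151 replicate 2 and 4 without DMSO replicate 1, DMSO replicate 2 or i-BET151 replicate 1. RARG, a retinoic acid receptor, lay at 97.7, 90.3 and 79.5 CPM with DMSO and 23.2, 21.7 and 22.5 CPM with i-BET151 (log2 fold change −1.99 ± 0.11 (SE), adjusted p = 2.16e-06), and ESRRG had a log2 fold change of −2.41. RORB, below 1 CPM with DMSO, had one of 2.31 but did not pass without DMSO replicate 2, i-BET151 replicate 1, i-BET151 replicate 2 or i-BET151 replicate 3. In the circadian list 6 of 20 rose and 3 fell, among them the repressor genes BHLHE41 (−1.21) and BHLHE40 (−0.69), and RORA rose (0.68). The rises were 3 without i-BET151 replicate 2 and the falls 7 with the block and 5 without DMSO replicate 3.

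Chromatin complexes showed single members that changed. In SWI/SNF 4 of 27 rose and 3 fell. The falls were 10 in replicates 1 and 2 alone, 5 with the block and 1 without DMSO replicate 1, DMSO replicate 2 or i-BET151 replicate 2. The members included PBRM1, the polybromo subunit, at 73.9, 73.0 and 61.8 CPM with DMSO and 130.1, 157 and 153 CPM with i-BET151 (log2 fold change 1.07), BICRAL at −1.33 and SMARCD1 at 0.51 on the log2 scale. DPF3, below 0.2 CPM with DMSO, had a log2 fold change of 4.04. In Mediator 6 of 33 rose and 4 fell, with the kinase gene CDK19 at 0.88, MED12L at 0.99, MED23 at 0.61 and MED24 at −0.68, and the falls were 2 without i-BET151 replicate 2. Among 30 genes of histone acetylation 7 rose (13 with the block) and 4 fell (2 without i-BET151 replicate 1). The acetyltransferases KAT2A and KAT2B went apart, with log2 fold changes of −1.15 and 1.07, and the deacetylase gene SIRT1 (1.24) and the coactivator gene NCOA3 (1.09) rose.

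Of the 1953 genes that passed at both times, 134 (6.86%) went in opposite directions, 32 from higher at 4 h to lower at 24 h and 102 from lower to higher. The genes named here are among the 6 with the largest differences in each direction among protein-coding genes of at least moderate abundance. ZNF703, a transcriptional repressor, lay at 17.6, 19.3 and 34.2 CPM with DMSO and 10.9, 10.95 and 12.5 CPM with i-BET151, a log2 fold change of −1.05 after 0.99 at 4 h (adjusted p of the difference 2.65e-04). CHAC1 and HERPUD1, both stress-induced genes, went from 0.92 and 0.97 to −0.82 and −0.53. TMCC2 lay at 14.8, 14.1 and 16.98 CPM with DMSO and 36.2, 32.6 and 37.9 with i-BET151, a log2 fold change of 1.22 after −0.78, and XRN1, the cytoplasmic 5′ exonuclease, went from −1.04 to 0.63.

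At the same dose and time i-BET858 gave a response that differed from that of i-BET151 in few single genes. The contrasts of both drugs share the DMSO libraries, so that the drugs were compared directly. Of 17157 genes 36 (0.210%) passed, 16 higher (0.0933%) and 20 lower (0.117%) with i-BET858, and 11 (0.0641%) were called, 4 higher (0.0233%) and 7 lower (0.0408%), and the number called was 61 with the replicate block and 1 to 104 over all alternatives. Of the genes named above, CDKN1A had log2 fold changes of 2.66 with i-BET151 and 3.60 with i-BET858 (adjusted p of the difference 0.0485), CDKN2B ones of 0.35 and 0.97 (0.0376) and HES6 ones of 1.82 and 2.62 (0.0485). H2AJ (1.70 and 2.37) and MAP1LC3B (1.32 and 1.87) also differed, each with the larger change under i-BET858. The alternatives were not run on single genes for this comparison of the drugs. ZMYND8, a histone reader chosen after its values were seen, lay at 40.0, 40.4 and 28.4 CPM with DMSO and 12.3, 14.8 and 15.5 with i-BET151 and had a log2 fold change of 0.26 with i-BET858 (adjusted p of the difference 0.0218). A difference that did not pass does not show that the drugs act alike.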

How the data were processed

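OVCAR-3 poly-A libraries numbered 18, 3 of each treatment and time, and the 6 libraries of i-BET151 and DMSO at 24 h form the comparison reported. The authors deposited raw counts per gene. Per their methods and the submitters' processing notes, reads were aligned to GRCh38 with STAR, counted on genes by STAR and tested with DESeq2. Versions, gene annotation and strand setting are not given in the sources used here. The 58825 gene identifiers were matched to GENCODE 44 (58472 found), which gave symbols and positions, and every column had a sample. Promoters came from RefSeq (GRCh38.p14).

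Counts of the 9 libraries at 24 h were filtered by edgeR's filterByExpr, scaled by TMM and tested with edgeR's quasi-likelihood test by treatment (R 4.3.3, edgeR 4.0.16, limma 3.58.1), with Benjamini-Hochberg adjustment over all genes tested. A gene passed at an adjusted p under 0.05 and was called if it also changed 2-fold. The difference between times was tested in 1 fit of all 18 libraries, and i-BET858 against i-BET151 in the 24 h fit. CPM used TMM-scaled library sizes. The ratio of a single replicate set an i-BET151 library against the DMSO library of the same number, with 0.1 CPM added to both. The tests were tried on simulated counts beforehand.

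Named genes were, among called protein-coding genes with a mean log2 CPM of at least 3 and 1 direction in all 9 pairs of libraries, the 8 largest rises and falls, the 5 called genes with the largest gain and loss of CPM, up to 4 passed members of each of 49 gene lists with members that define a list, and the BET genes, HEXIM1 and genes the study names. Further list members, NFKBIE, CD4, CLDN5 and the genes of the promoter stretches were chosen after their values were seen. Some of these genes enter the counts but are not reported here by name. The libraries compared and the lists were chosen with earlier results of these data known.

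Same-numbered libraries deviated together from their group means (correlations 0.299, 0.175 and 0.318 for replicates 1, 2 and 3), and, each being over 0.1, the numbers were taken to pair them. Unlike numbers gave 0.205 and 0.241 between replicates 1 and 2 and −0.319 to −0.224 with replicate 3, so that the numbers set replicate 3 apart but do not tell replicate 1 from 2. The main test was by treatment alone and did not use the numbers, which entered as a block in 1 alternative. Counts differed between replicates 1 and 2 by 4.19 (DMSO) and 8.87 (i-BET151) times the variance of counting error, and between these and replicate 3 by 47.9 to 66.1 times. Alternatives were DESeq2 1.42.0, its size factors, total library size, no filter, at least 10 counts in every library, only the groups compared, the replicate number as a block, replicates 1 and 2 alone, each library left out, the adjusted p alone and a fold change of 1.5.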

Additional observations from a re-analysis of the deposited data

Results flagged for a closer look

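Several named genes responded differently at 24 h and 4 h by the test of the difference, each time against DMSO libraries of the same time. The log2 effect at 24 h minus that at 4 h was 1.82 for EFR3B and 1.38 for TXNRD1. Among the genes with a lower effect at 24 h it was −4.12 for VIT, −4.03 for VTCN1, −3.43 for LIX1, −2.94 for ADGRF1, −2.84 for CCL28, −2.73 for GBP1 and −2.50 for SLC12A8. It was −1.38 for SERPINH1, −1.10 for KRT18, −0.83 for NOG and −0.80 for ADGRG1, and −0.68 for CDKN2B, whose rise was smaller at 24 h. For genes that did not pass at 24 h it was 1.21 for BCL2L1, 0.81 for TOPBP1, 0.61 for DIDO1 and 0.57 for SMAD4.

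Some genes passed in opposite directions at the 2 times and were called at 24 h. From higher at 4 h to lower at 24 h, the difference was −2.19 for PSMB9, −2.14 for DDIT4, −2.07 for GBGT1 and −2.02 for ZNF703. From lower to higher it was 3.57 for RIPOR2, 3.04 for ENSG00000273888.1, 2.43 for the receptor tyrosine kinase gene KIT, 2.40 for LINC02575, 2.15 for DUBR, 2.06 for DGCR11 and 2.02 for TMCC2. These genes were selected for the pattern out of 134 that went in opposite directions.

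For 5 named genes, beside ZMYND8, which was chosen after its values were seen, the effects of the drugs differed at 24 h. In these 5, i-BET858 minus i-BET151 was 0.95 for CDKN1A, 0.80 for HES6, 0.67 for H2AJ, 0.63 for CDKN2B and 0.55 for MAP1LC3B on the log2 scale (edgeR's quasi-likelihood test, adjusted p from 0.0376 to 0.0491). All 5 lay close to the threshold, and the alternatives were not run on single genes for this comparison of the drugs.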

How the results depend on the processing

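The 2347 genes called at 24 h became 1972 to 2478 when each library was left out, 2798 with DESeq2, 2352 with its size factors, 2326 with total library size, 2482 without a filter, 1921 with at least 10 counts in every library, 2278 with only the groups compared and 3246 with replicates 1 and 2 alone. They became 5797 with the adjusted p alone and 4193 at a fold change of 1.5, which are wider criteria. The 1217 genes whose effect differed between 4 and 24 h became 901 to 1212 when each library was left out, 2072 with replicates 1 and 2 alone, 2508 with the adjusted p alone and 2267 at a fold change of 1.5. The 11 genes that differed between the drugs became 1 to 5 when each library was left out, 74 with DESeq2, 4 with its size factors (all higher with i-BET858, against 4 of 11), 17 with total library size, 61 without a filter, 1 with only the groups compared, 104 with replicates 1 and 2 alone, 36 with the adjusted p alone and 34 at a fold change of 1.5. The cause of these shifts was not tested.

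With a replicate block 2599 genes were called at 24 h, 1646 differed between the times and 61 differed between the drugs. Of the 209 named genes 206 kept their direction and their side of the adjusted p threshold under the block. The other 3 passed newly (BCL2L1, MYC and SMAD4). The 2-fold criterion was not checked again for single genes. Of 98 counts of list members that rose or fell, 44 were over 1.5 times larger and 0 over 1.5 times smaller in replicates 1 and 2 alone and 27 were over 1.5 times larger and 0 over 1.5 times smaller with the block. Among gene lists of the text, WNT falls went from 7 to 12 with DESeq2, rises of BET and P-TEFb genes from 5 to 3 with its size factors, and DNA replication rises from 7 to 4 with total library size. Over all settings 2766 of 2891 values of named genes kept their direction and their side of the threshold, 109 no longer passed, 12 passed newly and 4 reversed. All 4 were of E4F1, which had not passed, with log2 fold changes of −0.0038 with total library size, −0.111 in replicates 1 and 2 alone, −0.0219 without i-BET151 replicate 1 and −0.0863 without DMSO replicate 3 (range over libraries left out −0.0863 to 0.135). Of the 209, 25 no longer passed without i-BET151 replicate 2, 16 without i-BET151 replicate 1, 8 without i-BET151 replicate 3, and 12, 17 and 17 without DMSO replicate 1, 2 and 3. Genes that no longer passed without 4 or more of the 6 libraries in turn included BRD3, CA12, E2F8, EGR2, FLT1, HOXA11, KLK8, NLRC5, RORB and SGO2. Genes that no longer passed without 1 to 3 of these libraries in turn included ASPM, AXL, BCL2, CCL20, CCND3, CD4, CLDN5, GDF15, H3C14, HOXA10, HOXC8, HOXD11, KRT5, MT-ND5, NDUFA9, PSMB5, PSMB6, RORA, RPL35, TNC and WNT10A. Depth limits genes near 3 counts a library, where a count of 0 allows 0.0745 to 0.103 CPM, and with 3 libraries a group small changes can go undetected.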
